A study of Bos taurus with 96 samples.

Results

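Mitochondrial ribosomal protein genes were followed in 5 fat depots and a muscle of beef cattle. The members were taken by name: a gene belonged to the set when its symbol was MRPL or MRPS followed by a number. The rule found 75 genes, measured by 129 probes, among 10679 genes that could be named on the array and 34227 probes tested. Of the 75 genes, 48 encode proteins of the large subunit of the mitochondrial ribosome and 26 encode proteins of the small subunit. MRPS36 carries the family name, but its protein is now placed outside the ribosome, with the oxoglutarate dehydrogenase complex. Each gene was represented by 1 probe, and 40 genes had more than 1 probe to compare.

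The samples came from steers labelled as having spent 259 days in a feedlot; those that gave the fat were about 26 months old at slaughter. They were of 3 breeds, Angus, Hereford and Wagyu x Angus, the last a cross. The fat depots were kidney (Kid), omental (Omen), subcutaneous (SC, over the rump), between muscles (Inter) and the marbling within a muscle (IMF), each with 12 arrays, 4 per breed, all labelled as fed on pasture, which the methods place in the period just after weaning. Longissimus dorsi muscle (LD) had 24 arrays labelled pasture, 8 per breed, and 12 labelled supplemental feeding, 4 per breed. IMF was dissected from the LD, and the LD was taken with its marbling in place. According to the methods the fat came from 15 steers, with the samples of best RNA integrity and purity chosen, and part of the LD samples came from an earlier kill; the labels do not tie arrays to animals or kills, so p-values treat arrays as independent, and diet and kill cannot be told apart. The labels give 46 arrays a group and replicate number that another array also has, 7 of them SC and 22 LD pasture. On every array the replicate number equals the position on the slide, so a repeated number need not mark a repeated sample. The median correlation was 0.979 over 29 pairs of arrays that share group and number. It was 0.980 over 121 pairs of the same groups with different numbers. Each array was counted as a sample. The 96 arrays were 1-colour Agilent arrays on 24 slides.

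Mitochondria carry their own ribosome, which reads only the few messages of mitochondrial DNA and so builds core subunits of the respiratory chain complexes. All its proteins are encoded in the nucleus, made in the cytosol and imported. Many descend from bacterial ribosomal proteins, and others were added during the evolution of the organelle. White adipocytes hold few mitochondria, whereas muscle fibres and brown adipocytes hold many.

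Every level below is a log2 signal relative to the 75th percentile of its array, which is set to 0, and a difference is between group means on this log2 scale. Differences were tested with limma across all 34227 probes, with Benjamini-Hochberg adjustment, and "higher" or "lower" counts members with an adjusted p under 0.05. All 75 members were well above background on every array. The SC and LD arrays were dimmer than the rest: between 66.2% and 82.1% of spots were well above background on SC and LD arrays, against 76.6% to 96.5% on the arrays of the other depots. Scanning took 3 days that went with tissue: the 12 IMF arrays were scanned on day 3, the 12 Inter arrays on day 2 and 11 of the 12 SC arrays on day 1, while LD pasture had 8 arrays on each day. The summed signal of 15 skeletal muscle markers, on the same log2 scale, was 10.3 to 11.97 in IMF and 12.2 to 12.9 in LD, and 1.81 to 4.997 in the other depots apart from 2 Inter arrays (6.68 and 10.02) and 1 SC array (6.61). Each of the 10 adipocyte markers was detected on 50% or more of the arrays of each fat depot, and all but LEP were in LD. In tissue pieces, fewer cells of a type and less RNA per cell cannot be told apart.

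The members separated muscle from fat and spread the fat depots over a narrower range. The median of the 75 members on an array, taken as the difference from their SC means, ran from -0.10 to 0.09 over the 12 SC arrays. It ran from -0.31 to 0.05 in Omen (median -0.19), from -0.26 to -0.02 in Inter (median -0.10), from -0.11 to 0.30 in Kid (median 0.10) and from -0.11 to 0.55 in IMF (median 0.10). In LD it lay between 0.97 and 1.39 on the pasture arrays and between 1.01 and 1.25 on the supplement arrays, so that no LD array overlapped any fat array. The fat depots all overlapped each other, and IMF had the widest spread (SD 0.25, n = 12) against 0.06 in SC.

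**Figure D1:**
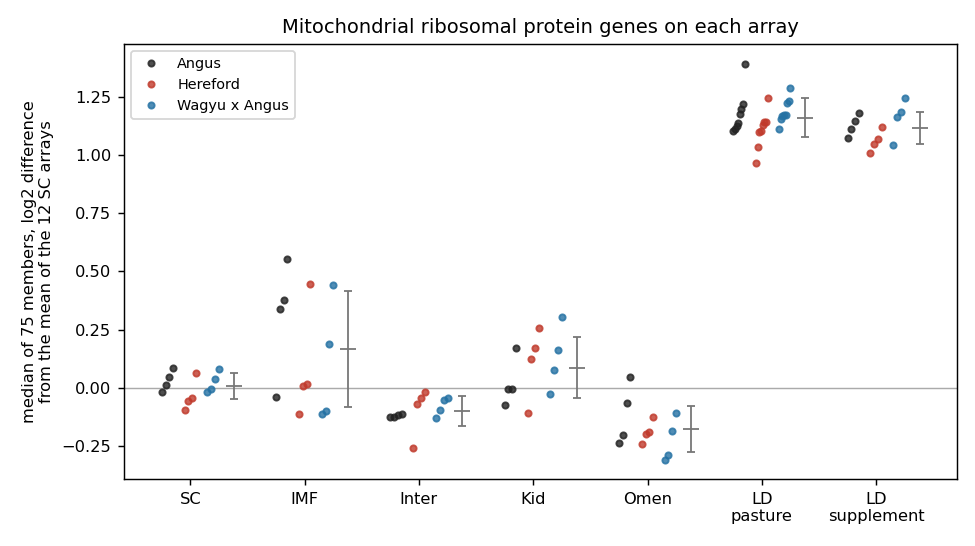
Each point is 1 array, coloured by breed; the vertical axis is the median over the 75 members of the log2 difference from the mean of the 12 SC arrays, and the grey bars are mean and SD of each group. The LD arrays sit between 0.97 and 1.39, above all fat arrays, and the IMF arrays reach from -0.11 to 0.55.

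Over the 5 depots 74 of the 75 members differed by depot, where 87.4% of all probes did, so the share alone says little about them. By the order of the means, IMF held the highest of the 5 depot means for 41 members, Kid for 19, SC for 13, Inter for 2 and Omen for 0, where over all probes these shares were 34.2%, 16.2%, 25.4%, 11.9% and 12.3%. The lowest mean was in Omen for 43 members, SC for 17, Inter for 10, IMF for 5 and Kid for 0, against 11.5%, 22.4%, 19.5%, 31.2% and 15.4% of all probes. The exception to the depot test was MRPL44, an RNase III-like protein of the large subunit, whose depot means reached only from -0.69 in Omen to -0.42 in Kid. The 6 members with the largest F over the depots were MRPL41, MRPS17, MRPL53, MRPL38, MRPL35 and MRPL33.

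Muscle was compared with subcutaneous fat. In LD on pasture 70 of the 75 members (93.3%) were higher than in SC, where 42.6% of all probes were higher, and 3 members (4.0%) were lower against 40.3% of all probes. The median difference of the members was 1.18, or 2.26-fold, and that of all probes 0.049. In 62 of the 75 members the 24 LD and 12 SC arrays did not overlap, beside 39.1% of all probes. Within scan day 1, with 8 LD and 11 SC arrays, 69 were higher and 3 lower, and the median was 1.10, beside 41.5% and 40.2% of all probes.

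MRPL34, homologue of a small protein of the bacterial large subunit, showed the pattern most plainly. Its level was between -0.06 and 0.20 in SC (median 0.11) and between 2.43 and 3.18 in LD on pasture (median 2.82). The difference was 2.70 ± 0.06 (SE), 6.51-fold (adjusted p = 4.3e-32). MRPL48, a protein added to the large subunit in mitochondria, went from a median of -0.92 in SC to 1.72 in LD, a difference of 2.61 ± 0.08 (adjusted p = 1.94e-27). MRPL35, another large subunit protein with a bacterial counterpart, differed by 2.57 ± 0.075 (adjusted p = 8.11e-28), and each of its 24 LD arrays, 3.36 to 4.32, was above each of the SC arrays, 1.04 to 1.55. MRPS17, which binds the small subunit RNA, was 4.71-fold higher in LD. The largest value of all, 2.71 for MRPL53, rests on 1 of 4 probes that disagreed, as given further on.

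A few members did not follow. MRPS6, a small subunit protein of the platform region, fell: it reached from 1.37 to 1.96 in SC and from 0.68 to 1.61 in LD, with a difference of -0.51 ± 0.09 (adjusted p = 2.69e-06), and 16 of the 24 LD arrays were below every SC array. MRPL52, a mitochondria-specific large subunit protein, was between 1.21 and 1.55 in SC and between 0.65 and 1.21 in LD without overlap, a difference of -0.44 ± 0.05 (adjusted p = 6.7e-10). MRPL10, which forms the base of the stalk that recruits translation factors, was lower by a smaller step, -0.23 ± 0.075 (adjusted p = 0.00569), with overlapping arrays. The other members not higher were MRPS9, with a difference of 0.09 (adjusted p = 0.236), and MRPS10, with means of -0.07 in SC and 0.00 in LD. Both are small subunit proteins with bacterial counterparts, and neither passed the test.

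**Figure D2:**
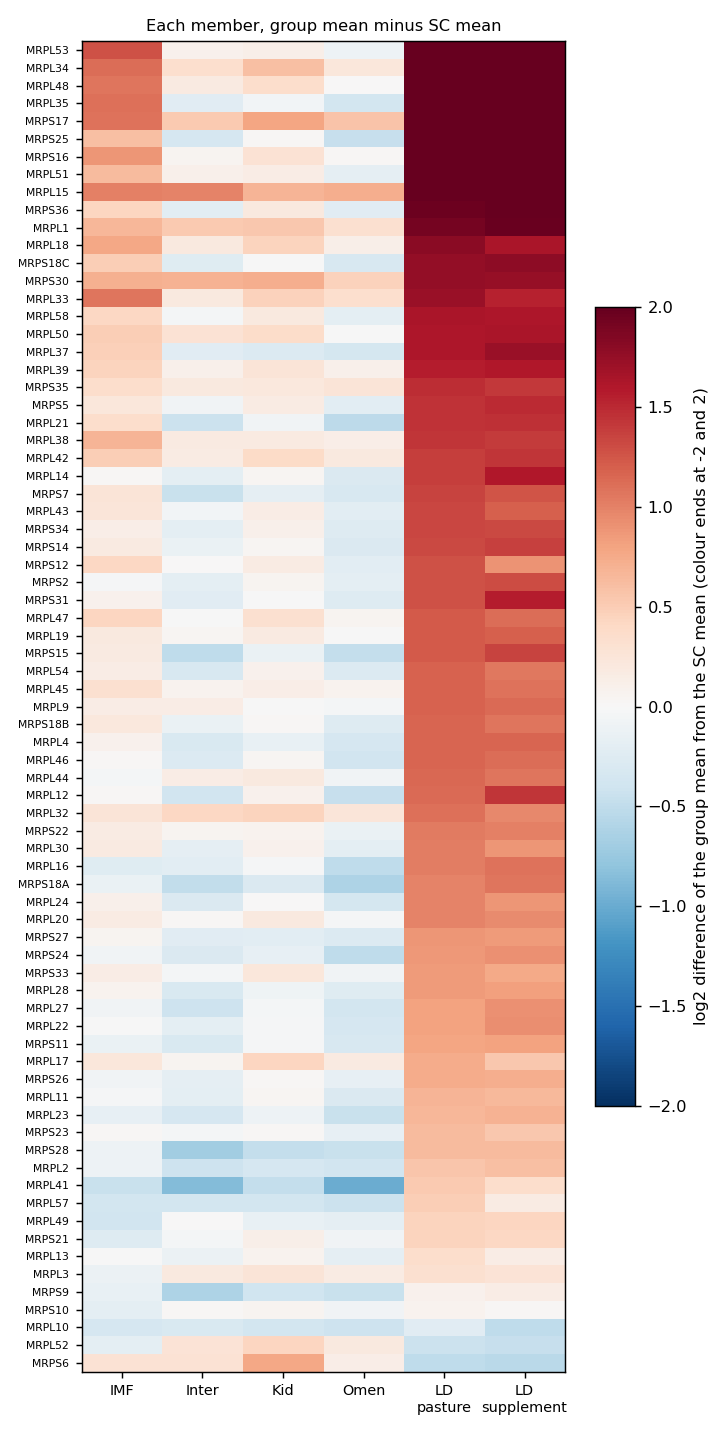
Rows are the 75 members, ordered by their LD pasture value; colour is the log2 difference of the group mean from the SC mean, with the colour scale ending at -2 and 2. The 2 LD columns are red in nearly all rows, with MRPS6, MRPL52 and MRPL10 at the foot, and 9 members exceed 2 in LD on pasture.

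Among the depots with little muscle signal on most arrays, Omen stood lowest. Against SC, 43 of the 75 members (57.3%) were lower in Omen beside 24.3% of all probes, and 11 (14.7%) were higher beside 22.3%. The median of the members was -0.20 and that of all probes -0.010. Inter leaned the same way: 32 members (42.7%) were lower, 15 (20%) higher, and the background was 27.3% lower and 21.5% higher; the medians were -0.12 for the members and -0.048 for all probes. Kid leaned the other way, with 23 members (30.7%) higher and 7 (9.3%) lower beside 19.3% and 22.4% of all probes, and a median of 0.07 against -0.009. These 3 comparisons share the 12 SC arrays. Without the 3 arrays with high muscle markers, 31 members were lower and 13 higher in Inter, beside 25.5% and 21% of all probes. In Omen 43 were lower and 11 higher, beside 24.4% and 22.6%, and in Kid 7 and 22, beside 22% and 18.9%. The summed log2 signal of the adipocyte markers was also highest in SC, at 9.81 ± 0.19 (SD, n = 12), against 9.32 ± 0.17 in Inter, 9.38 ± 0.33 in Kid and 9.47 ± 0.19 in Omen; of the 10 markers 3 were lower and 1 higher in Inter, 2 and 0 in Kid, and 3 and 1 in Omen. The summed signal of 6 endothelial markers was 6.155 ± 0.255 (SD) in SC, 5.755 ± 0.193 in Inter, 5.82 ± 0.583 in Kid and 6.188 ± 0.282 in Omen. The part of adipocyte or endothelial markers in the member differences was not tested.

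The split between higher and lower moved with the values used. In the deposited log2 table, which takes the median signal less local background and has no scaling between arrays, 66 members were higher and 0 lower in Omen, 73 and 0 in Inter, and 75 and 0 in Kid, while 83.9%, 90.4% and 76.6% of all probes were higher and the median of all probes itself was 0.82, 0.98 and 0.83. Relative to that median the members were at -0.21 in Omen, -0.09 in Inter and 0.14 in Kid, close to -0.19, -0.07 and 0.08 in the main values. With normexp background correction the counts were 13 higher and 38 lower in Omen (12.3% and 53% of all probes), 16 and 28 in Inter (13.1% and 55.2%) and 28 and 6 in Kid (12.4% and 50.2%), but the median of all probes was -0.24, -0.28 and -0.25, so that relative to it the members turned to 0.09 in Omen and 0.22 in Inter, and were at 0.36 in Kid. In Inter they were also at 0.003 when all 129 member probes were used. Scan day and depot could be separated only partly: with day as a block over all 96 arrays 33 members were lower in Omen than in SC and 4 higher, beside 16.9% and 15.1% of all probes, whereas with the block on these 2 depots alone, where a single SC array shares a day with Omen, 2 were lower and 0 higher, beside 2.5% and 2.7%. For Kid, within scan day 1 (5 Kid and 11 SC arrays), 19 were higher and 4 lower, with a median of 0.07, beside 11.5% and 18.6% of all probes.

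MRPL41 had the largest F over the depots. It encodes a mitochondria-specific protein of the large subunit that is also known as a binding partner of BCL2. Its level was 4.31 to 4.81 in SC (median 4.64), 3.88 to 4.55 in IMF (median 4.12), 3.59 to 4.63 in Kid (median 4.14), 3.34 to 4.09 in Inter (median 3.76) and 3.37 to 3.88 in Omen (median 3.57). Every Omen and every Inter array was below every SC array, and IMF and Kid lay between and overlapped SC. The differences from SC were -0.99 ± 0.07 in Omen (adjusted p = 1.5e-10), -0.88 ± 0.07 in Inter (adjusted p = 5.55e-09), -0.48 ± 0.09 in Kid (adjusted p = 0.000161) and -0.45 ± 0.09 in IMF (adjusted p = 8.74e-05).

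MRPS17 did the opposite. It ran from 0.50 to 1.24 in SC (median 0.79), against medians of 1.45 in Omen, 1.36 in Inter, 1.58 in Kid and 1.97 in IMF. All 12 Kid and all 12 IMF arrays exceeded every SC array, and 9 Inter and 10 Omen arrays did. The differences were 0.79 ± 0.08 in Kid (adjusted p = 6.48e-08), 0.57 ± 0.07 in Omen and 0.53 ± 0.08 in Inter. MRPL15, a large subunit protein of bacterial origin, and MRPS30, a large subunit protein despite its symbol, were likewise above SC in each of the other depots, by 0.68 to 1.01 for MRPL15 and by 0.47 to 0.72 for MRPS30. SC was therefore lowest for these genes and highest for MRPL41.

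The lower members in Omen included MRPL21 and MRPS18A, both of the large subunit. MRPL21 ran from 2.57 to 2.98 in SC and from 2.04 to 2.55 in Omen without overlap, a difference of -0.53 ± 0.06 (adjusted p = 2.62e-07). MRPS6 was higher in Kid than in SC by 0.78 ± 0.11 (adjusted p = 5.74e-06). MRPS18A differed in Omen by -0.62 ± 0.12 (adjusted p = 0.000138), with overlapping arrays. The lowest in Inter and Kid beside MRPL41 were the small subunit genes MRPS28, at -0.69 and -0.47, and MRPS9, at -0.61 and -0.40.

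**Figure D3:**
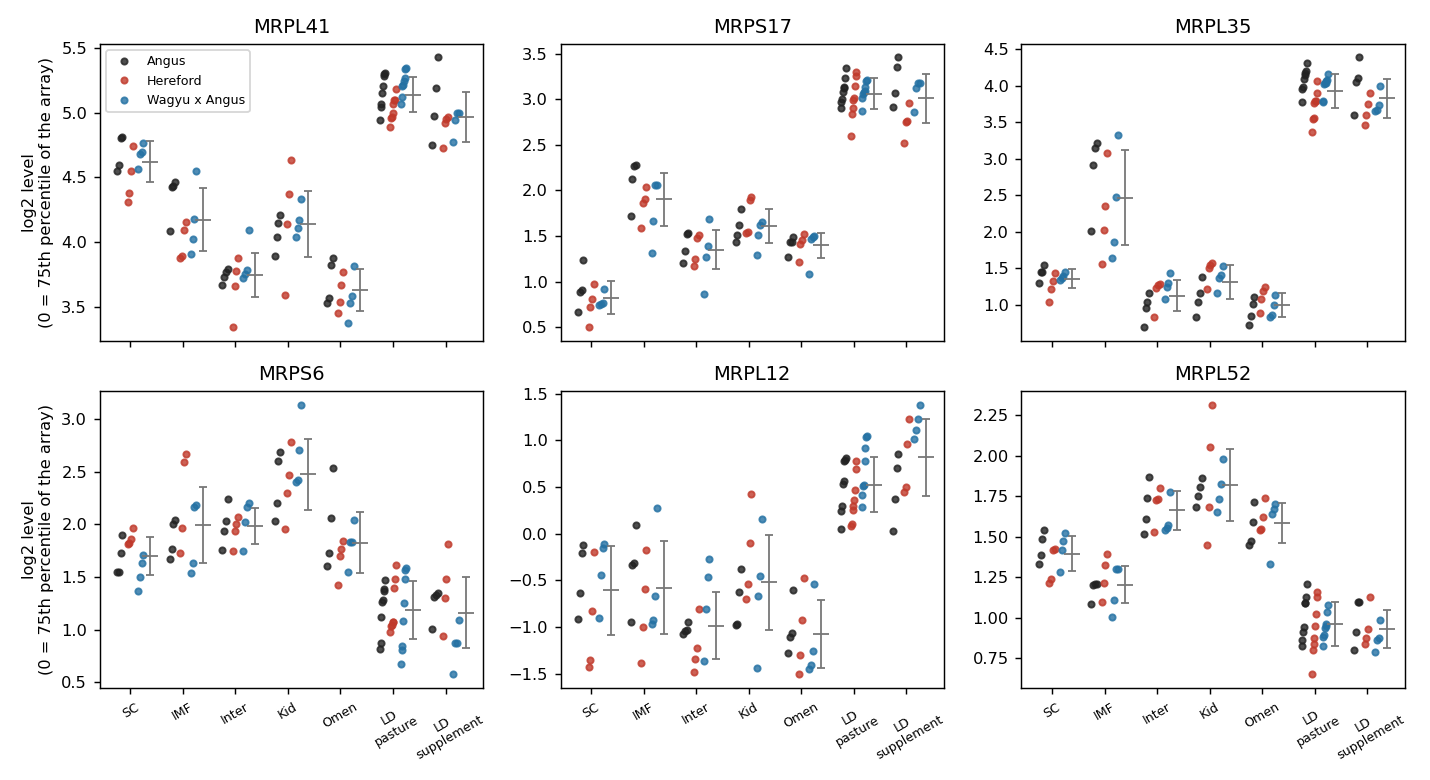
Each panel is 1 member and each point 1 array, coloured by breed; the vertical axis is the log2 level with 0 at the 75th percentile of the array, and grey bars are mean and SD. MRPL41 is highest in SC among the fats (4.31 to 4.81) and MRPS17 lowest (0.50 to 1.24), MRPL35 varies most in IMF, MRPS6 has its highest fat mean in Kid (1.96 to 3.14), and MRPL52 is lowest in LD.

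Kidney fat and omental fat are both internal depots. Of the 75 members, 40 (53.3%) were higher in Kid beside 5.82% of all probes, and 0 were lower beside 7.15%. The median of the members was 0.26, or 1.20-fold, and that of all probes -0.008. In the deposited log2 values 9 were higher and 0 lower, beside 1.9% and 2.3% of all probes, with a median of 0.37 against 0.03. The mean was higher in Kid for 72 of the 75 members, whether or not the test was passed, beside 48.7% of all probes. The steps were small, with the largest 0.65, and the Kid and Omen arrays overlapped in every member; 0.131% of all probes did not overlap.

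MRPS6 showed the largest step. It ran from 1.96 to 3.14 in Kid (median 2.45) and from 1.43 to 2.54 in Omen (median 1.80), a difference of 0.65 ± 0.13 (adjusted p = 0.00219), with 5 Kid arrays above all Omen arrays. MRPL12, which besides its place in the stalk is known to bind the mitochondrial RNA polymerase, ran from -1.44 to 0.42 in Kid and from -1.51 to -0.47 in Omen, a difference of 0.55 ± 0.18 (adjusted p = 0.0387). MRPL41 differed by 0.51 ± 0.09 (adjusted p = 0.00111), with 11 of 12 Kid arrays above all Omen arrays. MRPL21 differed by 0.46 ± 0.09 (adjusted p = 0.00181).

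Inter lay below Kid. Against Kid, 26 members (34.7%) were lower in Inter beside 7.49% of all probes and 0 were higher beside 7.92%, with medians of -0.19 and -0.042. With quantile normalization 17 were lower beside 6.3% of all probes, and in the deposited log2 values 0 members and 0.8% of all probes were. The lowest were MRPS6 (-0.49), MRPS36 (-0.40) and MRPL54 (-0.40), the last a mitochondria-specific large subunit protein. Without the 2 Inter arrays that carried muscle markers 18 were lower and 0 higher, beside 4.3% and 6% of all probes. Between Inter and Omen 5 members (6.7%) were higher in Inter beside 5.41% of all probes and 0 were lower beside 9.06%, by name MRPL16, MRPL50, MRPL51, MRPS24 and MRPS22. With normexp 8 were higher and 1 lower (5.4% and 13.1% of all probes), with a scan day block over 96 arrays also 8 and 1 (7.6% and 12.7%), and in the deposited log2 values 30 and 0 (17.4% and 2.3%).

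Muscle markers moved between these depots too. Of the 15 muscle markers, 6 were higher in Kid than in Omen (median difference 0.88) and 0 were lower, although their summed level was at most 4.997 in Kid and 3.81 in Omen; 11 of the 15 were detected on 50% or more of the Omen arrays, the exceptions being MYH1, MYH2, MYL2 and TNNT1. Of the 10 adipocyte markers 0 differed between Kid and Omen in either direction. The scan days of Kid and Omen overlapped in 6 Kid and 2 Omen arrays on day 2 and 1 Kid and 10 Omen arrays on day 3. With day as a block over all 96 arrays 43 members were higher and 0 lower, beside 10.3% and 12.5% of all probes. With the block on these 24 arrays alone the median of the members was 0.25, but 0 members and 0.2% of all probes were called higher. For Inter and Kid within scan day 2 (12 and 6 arrays) 8 members were lower beside 5.5% of all probes, 0 were higher and the median was -0.18.

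Marbling fat was the depot with the most muscle in it. Against SC 31 of the 75 members (41.3%) were higher in IMF beside 31.9% of all probes, and 8 were lower beside 32.5%. The median of the members was 0.17, or 1.13-fold, against 0.009 for all probes. Of the 72 members with a higher mean in LD than in SC, the IMF mean lay between them for 51 (70.8%), beside 63.5% of all probes that were higher in LD. All 15 muscle markers were higher in IMF than in SC, with a median difference of 10.5, and were 1.51 lower than in LD at the median; all 10 adipocyte markers and all 8 macrophage markers were lower in IMF than in SC. The summed signal of 6 endothelial markers was 5.328 ± 0.354 (SD) in IMF against 6.155 ± 0.255 in SC. The part of muscle tissue in the member differences was not tested.

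MRPL53, MRPL34, MRPL35 and MRPL33, all well above SC in LD, were also among the highest in IMF. For MRPL53 this rests on its brightest probe, and its other probes were at -1.09, -0.59 and 0.27. MRPL34 ran from 0.44 to 1.90 in IMF, above all SC arrays, a difference of 1.11 ± 0.16 (adjusted p = 1.28e-06). MRPL35 ran from 1.56 to 3.32 and exceeded SC by 1.11 ± 0.18 (adjusted p = 1.27e-05), and its SD was 0.65 in IMF against 0.13 in SC. MRPL33, another small large-subunit protein of bacterial origin, ran from 2.75 to 3.71 in IMF and from 1.84 to 2.52 in SC, a difference of 1.06 ± 0.11 (adjusted p = 7.93e-09). MRPL38, a mitochondria-specific protein, was between 2.004 and 2.72 in IMF and between 1.497 and 1.84 in SC, 0.68 ± 0.07 apart (adjusted p = 2.84e-08), while Inter, Kid and Omen exceeded SC by only 0.14 to 0.18. The 3 lowest past the threshold were MRPL41 (-0.45), MRPL49 (-0.38) and MRPL57 (-0.37).

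The values used mattered here as well. When arrays were centred on their mean, 22 members were higher and 17 lower beside 24.4% and 40.6% of all probes, with all probes at a median of -0.13 and the members 0.16 above it. In the deposited log2 values 71 were higher and 0 lower, but 63.5% of all probes were higher too, with a median of 0.63 beside 0.78 for the members. A scan day block over 96 arrays gave 27 higher and 9 lower, each beside 25.7% of all probes, and on the 24 arrays alone, where a single SC array shares a day with IMF, 4 and 1, where 8.8% and 11.3% of all probes were called.

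Against Inter and Omen, but not against Kid, the share of members higher in IMF exceeded that of all probes. Of the members 45 (60%) were higher than in Inter beside 33.6% of all probes, with 5 (6.7%) lower beside 29.4%. Against Kid 20 (26.7%) were higher beside 29.3% and 6 (8.0%) lower beside 26.8%. Against Omen 54 (72%) were higher beside 27.8% and 2 (2.7%) lower beside 29.7%, and within scan day 3, with 12 IMF and 10 Omen arrays, 51 were higher and 2 lower beside 27.1% and 28.9% of all probes. In the deposited log2 values 11 were higher and 19 lower against Inter, beside 13.2% and 52.4% of all probes. Against Kid 5 and 19 were, beside 15% and 35.5%, and against Omen 23 and 5, beside 15.1% and 38.7%. More members were lower than higher against Inter and Kid, but all probes also leaned lower in each of these comparisons. The median differences were 0.31 from Inter, 0.10 from Kid and 0.34 from Omen. MRPL35 and MRPL53 were the highest in each of these comparisons, and MRPL52 was lowest in each, at -0.46, -0.61 and -0.38. The rank of MRPL53 rests on the brightest of its 4 probes, which disagreed in IMF minus SC. Against LD on pasture 72 members (96%) were lower in IMF beside 38.7% of all probes and 2 (2.7%) higher beside 36.6%, with a median of -1.02. Relative to all probes the median was -0.99, and -0.55 with normexp and -0.57 with quantile normalization. The 2 higher were MRPS6 (0.81) and MRPL52 (0.24). The lowest was MRPS25, a mitochondria-specific small subunit protein, at -1.60. Within scan day 3 (12 IMF and 8 LD arrays) 73 were lower and 2 higher, beside 37.5% and 36.2% of all probes. In the deposited log2 values 37 were lower and 5 higher, beside 10.3% and 63.3%.

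**Figure D4:**
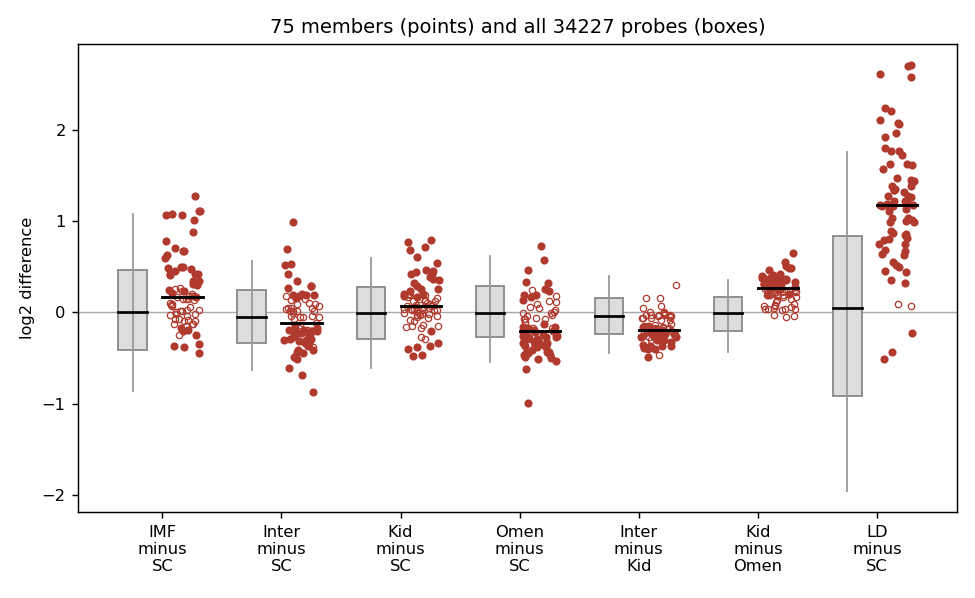
For each comparison the points are the 75 members (filled where the adjusted p is under 0.05) with a thick line at their median; the box spans the middle 50% and the line the 10th to 90th percentile of the differences of all probes. The members of Kid minus Omen sit almost wholly above 0 (72 of 75), and those of LD minus SC are centred on 1.18.

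Both subunits took part. In Kid minus Omen 23 of 48 large subunit genes and 16 of 26 small subunit genes were higher beside 5.82% of all probes, with medians of 0.26 and 0.27. In LD minus SC 46 of 48 and 23 of 26 were higher beside 42.6% of all probes, with medians of 1.17 and 1.19. Split by origin, 40 of 44 genes with a bacterial counterpart and 29 of 30 mitochondria-specific genes were higher in LD, with medians of 1.12 and 1.23. In Omen minus SC 23 of 48 large subunit and 19 of 26 small subunit genes were lower beside 24.3% of all probes, with medians of -0.18 and -0.24. No difference between these groups was tested.

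Several members with a known side role were read individually. MRPL58, a peptidyl-tRNA hydrolase that frees stalled ribosomes, was higher in LD than SC by 1.63, in Kid than Omen by 0.39 and in IMF than SC by 0.42, all past the threshold. MRPL45, which helps hold the ribosome at the inner membrane, was higher in LD by 1.18 and in IMF by 0.32, and in Kid and Omen it was within 0.13 of SC. The 3 proteins of the S18 family, MRPS18A, MRPS18B and MRPS18C, were higher in LD by 0.998, 1.17 and 1.76. MRPS12, at the decoding centre, was higher in LD by 1.28 and in IMF by 0.41. MRPS36, whose protein is now placed with the oxoglutarate dehydrogenase complex, moved as the ribosomal genes did: higher in LD by 1.96 and in Kid over Omen by 0.42, and lower in Omen than SC by 0.22. MRPL19, a large subunit protein, was higher in LD by 1.22 and in Kid than SC by 0.17, while its difference in IMF was 0.20 (adjusted p not under the threshold).

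Genes that work beside the mitochondrial ribosome were counted in the same comparisons. Of 79 genes of the respiratory chain and ATP synthase, 74 were higher and 5 lower in LD than in SC (median 1.82). Of all probes 42.6% were higher and 40.3% lower. In Kid against Omen 56 were higher and 0 lower (median 0.41), beside 5.82% and 7.15% of all probes. In Omen against SC 72 were lower and 0 higher (median -0.45), beside 24.3% and 22.3% of all probes. In Kid against SC 8 respiratory genes were higher and 11 lower, with a median of -0.05. These are smaller shares than the 19.3% and 22.4% of all probes. The members had 23 higher and 7 lower there. In IMF against SC 50 respiratory genes were higher and 5 lower (median 0.43), beside 31.9% and 32.5% of all probes. The 78 cytosolic ribosomal protein genes were at 0.12 in LD minus SC. They were at 0.01 in Kid minus Omen, where 0 were called in either direction, beside 5.82% of all probes higher and 7.15% lower. In Omen minus SC they were at -0.12, with 36 lower and 0 higher beside 24.3% and 22.3% of all probes.

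The mitochondrial translation factors leaned the same way. Of 11 factors 9 were higher and 0 lower in LD than in SC (median 1.12), beside 42.6% and 40.3% of all probes. In Kid against Omen 6 were higher and 0 lower (median 0.23), beside 5.82% and 7.15% of all probes. In the latter the 6 were MRRF (0.35) and MTRF1 (0.34), which act in recycling and termination, MTIF3 (0.32), which starts translation, TSFM (0.29), an elongation factor, MTRF1L (0.23), a release factor, and OXA1L (0.21), which inserts new proteins into the inner membrane. Of 16 mitochondrial tRNA synthetases 12 were higher and 1 lower in LD than SC (median 0.43), beside the same 42.6% and 40.3% of all probes. In Kid against Omen 4 were higher and 0 lower, beside 5.82% and 7.15%. Of 17 assembly factors of the mitochondrial ribosome 12 were higher and 2 lower in LD, and 3 were higher and 1 lower in Kid than Omen (median 0.05). Of 5 further ribosomal subunits that carry other symbols, such as DAP3, 4 were higher in LD and 2 in Kid over Omen. The same shares of all probes stand beside the assembly factors and these subunits.

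Of 8 regulators of mitochondrial biogenesis 2 were higher in Kid than Omen, beside 5.82% of all probes. They were the coactivator PPARGC1A (1.31 ± 0.31, adjusted p = 0.00766) and its partner receptor ESRRA (0.74 ± 0.12, adjusted p = 0.000546). MYC was lower (-0.62 ± 0.16, adjusted p = 0.016), where 7.15% of all probes were lower. NRF1, which binds promoters of many mitochondrial genes, was at -0.33 (adjusted p = 0.0575). In LD against SC PPARGC1A was higher by 3.09 and ESRRA by 2.90, while NRF1 was lower by 0.44 and GABPA by 0.21. The other regulators of the list are not given for this comparison, in which 42.6% of all probes were higher and 40.3% lower.

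**Figure D5:**
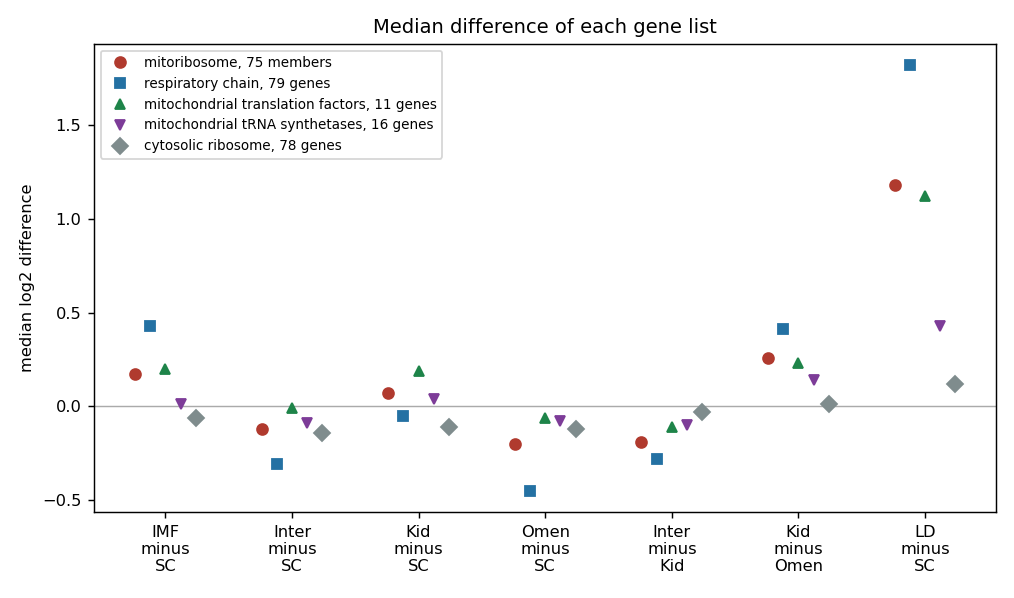
Each symbol is the median log2 difference of a gene list in the comparison below it. In Kid minus Omen the respiratory chain (0.41), the members (0.26) and the translation factors (0.23) are above 0 and the cytosolic ribosome is at 0.01; in LD minus SC they are at 1.82, 1.18, 1.12 and 0.12.

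The effect of diet was tested in muscle. In LD, with breed in the model, 2 of the 75 members (2.7%) were higher on supplement beside 5.6% of all probes and 5 (6.7%) were lower beside 5.63%. The median difference was -0.03, and the largest of either sign was 0.38. MRPS31 (0.30 ± 0.09, adjusted p = 0.0253) and MRPL14 (0.22 ± 0.05, adjusted p = 0.00735) were higher. MRPS12 (-0.38 ± 0.10, adjusted p = 0.0119), MRPL57 (-0.34), MRPL10 (-0.27), MRPL34 (-0.20) and MRPL41 (-0.17) were lower. Supplement and pasture arrays overlapped in all 75 members, and 0% of all probes were without overlap. In the deposited log2 values 27 members were lower and 0 higher, beside 16.4% and 0.9% of all probes, and with normexp 0 and 0 were called by limma. Of the 24 pasture arrays 8 were scanned on day 3, when no supplement array was. Within scan day 1 (8 pasture and 8 supplement arrays) 1 member was higher and 2 lower (5.6% and 6% of all probes), and within day 2 (8 and 4) 0 and 1 (2.5% and 3.6%). With the slide as a random block limma called 0 members, with 0% of all probes called to 1 decimal. Leaving out 1 supplement array left 1 higher without Hereford replicate 1, 3 lower without Angus replicate 2, and 2 lower without Angus replicate 4 or Wagyu x Angus replicate 4. The effect of diet depended on breed for 6 members (8.0%) beside 16.1% of all probes, but for 1 with scan day as a block, 1 with normexp and 0 in the deposited log2 values.

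Few members differed by breed in fat. Across the fat depots, with depot in the model, 3 members (4.0%) differed by breed beside 3.45% of all probes: MRPL22, MRPL57 and MRPS35. With quantile normalization 0 were called by limma (2.9% of all probes), with normexp 1 (2.2%), and in the deposited log2 values 0 (0.9%). The 60 fat arrays came from 15 steers, which the labels do not tie to arrays, so the breed p-values take arrays as independent and may be too small. Between pairs of breeds 1 member was called for Hereford against Angus beside 0.631% of all probes, MRPL22 (-0.23 ± 0.06, adjusted p = 0.0417). For Wagyu x Angus against Angus 0 were called by limma beside 0.824%, with 5 at an unadjusted p under 0.05. For Wagyu x Angus against Hereford 2 were higher beside 3.72% of all probes, MRPL57 (0.36 ± 0.10, adjusted p = 0.0286) and MRPS21 (0.17 ± 0.05, adjusted p = 0.0476). The SE of these differences was at most 0.14, and the largest difference between any pair of breeds was 0.36.

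A dependence of the depot differences on breed was not detected with this number of arrays. The interaction of depot and breed called 0 members beside 0% of all probes by limma, with 1 member at an unadjusted p under 0.05, and that of IMF minus SC with breed called 0 beside 0.00584%, also with 1. Within the breeds the median member difference between IMF and SC, less that of all probes, was largest in Angus at 0.25, against 0.17 for Hereford and 0.09 for Wagyu x Angus, and that between Omen and SC was -0.13, -0.18 and -0.28 for the same breeds. In LD 18 members (24%) differed by breed beside 25.2% of all probes. MRPL33 had the largest F (adjusted p = 0.00356), with a lower pasture mean in Hereford (3.63 ± 0.08, SD, n = 8) than in Angus (4.00 ± 0.18) or Wagyu x Angus (3.97 ± 0.28). MRPS5, of the small subunit, followed (adjusted p = 0.00439), with means of 2.52 in Angus, 2.80 in Hereford and 3.01 in the cross. Scan day went partly with breed in LD, and with day as a block 5 members and 6.1% of all probes were past the threshold. With normexp 36 members and 58.5% of all probes were, and in the deposited log2 values 75 and 66.8%.

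Probes of 1 gene did not always agree. Among the 40 genes with several probes, 2 had probes past the threshold in opposite directions in IMF minus SC, 2 in Inter minus SC, 2 in LD minus SC, and 0 in Kid minus SC, Omen minus SC, Kid minus Omen and IMF minus LD. With the threshold set aside, probes differed in sign for 10 genes each in IMF, Inter and Omen minus SC. The number was 8 each in Kid minus SC and Kid minus Omen, 5 in LD minus SC and 0 in IMF minus LD. MRPL53, of the large subunit, was the widest: its brightest probe, used above, differed by 2.71 in LD minus SC and 1.27 in IMF minus SC, and another by -0.31 and -1.09. MRPL12 had 2 probes at 1.13 and 1.06 in LD minus SC and another, named only in the tables of the study, at -0.24. MRPL51 had probes at 0.63 and -0.42 in IMF minus SC, and MRPS27, a pentatricopeptide repeat protein, had probes at -0.23 and 0.33 in Inter minus SC. For MRPL3 the chosen probe differed by 0.32 in LD minus SC and the other, named only in the tables of the study, by 1.95. Using the dimmest RefSeq-named probe of each gene instead gave 35 members higher and 9 lower in IMF minus SC, and 40 lower and 9 higher in Omen minus SC.

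A further 2 probes are called MRPL19 in the tables of the study but carry the accession of GAPDH, the glycolytic enzyme, and were not counted as members. They differed by 4.36 and 4.66 in LD minus SC and by 2.70 and 2.91 in IMF minus SC, against 1.22 and 0.20 for the MRPL19 probe used here.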

How the data were processed

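RNA of 96 tissue samples had been hybridised to 1-colour Agilent bovine arrays and read by the authors with Agilent Feature Extraction 10.7.3.1, per the file headers. The authors deposited the scanner output, with intensity values per spot that include a background-subtracted processed signal not scaled between arrays. They also deposited a table of log2 values; each value matched, within 0.0001, the log2 of a spot's median signal after subtracting its local background median (floor 1). Here processed signals were put on a log2 scale and the 75th percentile of each array was subtracted, outlier spots were left out and spots of a probe averaged, over the 34227 probes of the deposited table. Probes were named by their RefSeq accession (19903 probes) or by the tables of the study; 62.7% had a name. A gene was represented by its brightest RefSeq-named probe, or where none existed by one from the study's tables. Groups were compared with limma 3.58.1 in R 4.3.3 on the arrays of the groups compared, pasture arrays only for LD against fat, with Benjamini-Hochberg adjusted p at a threshold of 0.05. Breed in fat was fitted with depot over 60 arrays, and diet with breed over 36. The method was tested on simulated data.

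Members, gene lists and tests were chosen with earlier results of these data known. Genes named are mainly the 3 highest and 3 lowest members past the threshold of each comparison and the 6 with the largest F over depots. Others are from a list of members with known roles or had probes that disagreed. All members called are named for Inter minus Omen and for diet, as are those not higher in LD than SC. MRPL38 and the respiratory, translation and regulator genes come from the lists. Alternatives were quantile normalization, centring on the array mean, normexp (offset 50) for the background, the deposited log2 table, probe filters, the t-test of the methods, blocks for scan day, slide and replicate number, other probes, and, chosen after seeing the data, subsets within a scan day and without 3 arrays with muscle markers. Same-numbered arrays correlated at a mean of 0.004. Replicate numbers equal the position on the slide, so they cannot show whether samples share an animal. Python 3.11.15 with numpy 2.4.6, pandas 2.3.3 and matplotlib 3.10.9 served for summaries and figures. Labels do not say that arrays are separate animals, so p-values measure the spread between arrays. The number of arrays limits the precision.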

Additional observations from a re-analysis of the deposited data

Results flagged for a closer look

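The arrays of each breed, tissue and diet were checked for one that stood apart in the median difference of the members from the SC means, in 21 groups of 4 or 8 arrays; chance marks about 1 in 20 such groups. The array at position 4 of slide 23, LD of an Angus on pasture, was at 1.39, while the other 7 of its group reached from 1.10 to 1.22.

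The response of LD to diet differed between breeds for 6 members (8.0%) by limma's interaction test beside 16.1% of all probes, but for 1 with scan day as a block, 1 with normexp and 0 in the deposited log2 values. MRPS18A (adjusted p = 0.00237) was lower on supplement in Angus by 0.49 and higher in Hereford by 0.68. MRPL50 (adjusted p = 0.0118), MRPL3 (adjusted p = 0.0147), MRPS35 (adjusted p = 0.0196) and MRPL47 (adjusted p = 0.0265) were higher on supplement in Angus, by 0.42, 0.18, 0.22 and 0.30, while their differences in Hereford were -0.33, -0.30, -0.39 and -0.33. MRPL49 (adjusted p = 0.02) was lower in Angus by 0.39 and higher in Wagyu x Angus by 0.30. Each breed's 4 supplement arrays shared 1 slide, so slide and the response of a breed cannot be told apart.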

How the results depend on the processing

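Of 270 counts recomputed under alternatives 207 stayed within 1.5 times the main count, of 94 medians 85 moved by less than the spread between arrays, and of 198 values of single genes 177 kept direction and call, 16 lost the call and 5 turned, all 5 in the deposited log2 table, which differs in signal and background as well as in scaling. The cause was not tested where a value moved. In the deposited unscaled table, members higher and lower numbered 71 and 0 for IMF minus SC, 73 and 0 for Inter minus SC, 75 and 0 for Kid minus SC, 66 and 0 for Omen minus SC, 11 and 19 for IMF minus Inter, 5 and 19 for IMF minus Kid, 23 and 5 for IMF minus Omen, 5 and 37 for IMF minus LD, and 0 and 27 for supplement minus pasture. There 30 were higher in Inter than Omen, 9 in Kid than Omen, 0 lower in Inter than Kid, 75 differed by breed in LD and 0 in fat, and 0 showed diet by breed. All probes moved there too, with medians of 0.629 for IMF minus SC, 0.977 for Inter minus SC, 0.834 for Kid minus SC and 0.815 for Omen minus SC. For many counts in this section the share of all probes stands beside the same count in the Results. In that table MRPL41 (0.157), MRPL49 (0.324) and MRPL57 (0.222) turned in IMF minus SC, and MRPS18A (0.145) and MRPL21 (0.205) in Omen minus SC; the medians of all probes there were 0.629 and 0.815, and these genes were below them. Centring on the mean gave 17 lower in IMF minus SC and 6 higher in Omen minus SC. With quantile normalization 17 were lower in Inter minus Kid and 0 differed by breed in fat.

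With normexp 8 were higher and 1 lower in Inter minus Omen, 0 and 0 changed with diet, 1 showed diet by breed, 36 differed by breed in LD and 1 in fat. The median of the members less that of all probes became 0.220 for Inter minus SC and 0.091 for Omen minus SC, both turned, and 0.363 for Kid minus SC, 0.996 for LD minus SC and -0.554 for IMF minus LD, the last pair being 0.892 and -0.568 with quantile normalization. Over all 129 member probes it was 0.003 for Inter minus SC, turned from -0.067.

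With a scan day block over 96 arrays 8 were higher in Inter minus SC, 4 in Omen minus SC, 4 lower in IMF minus Omen, and 8 higher and 1 lower in Inter minus Omen. With the block on the depots compared, 4 were higher and 1 lower in IMF minus SC, 0 and 2 in Omen minus SC (median -0.034) and 0 higher in Kid minus Omen; for Inter minus SC no such fit was possible because their days do not overlap. In LD the day block gave 1 higher and 2 lower with diet, 1 with diet by breed and 5 with breed. Within scan day 1, 4 were lower in Kid minus SC, and with diet 1 was higher and 2 lower; within day 2, 8 were lower in Inter minus Kid, and with diet 0 were higher and 1 lower. The slide as a random block left 0 and 0 with diet. Leaving out 1 supplement array at a time gave 1 to 3 higher and 2 to 7 lower with diet.

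Same-numbered arrays did not deviate together, with a mean correlation of 0.004 over 15 pairs (from -0.121 to 0.196). Because the number equals the position on the slide, this cannot show whether depots share animals. With the replicate number as a replicate block 7 were higher in Omen minus SC and 3 lower with diet, and the other counts stayed within 1.5 times. Members were above background on all arrays, and their SE was 0.042 to 0.198 in the comparisons with SC.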
